A study of Mus musculus with 18 samples.

Results

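The Polycomb subunits described here were 9 genes of the 18193 measured: Ezh1, Ezh2, Eed, Suz12 and Jarid2 of Polycomb repressive complex PRC2, and Cbx2, Cbx6, Cbx7 and Cbx8 of PRC1. A probe set was taken where the array annotation gave it a single gene symbol and that symbol was one of the 9. That yielded 25 probe sets. This rule used no measured value, but the 9 genes were chosen with earlier results of these data known. Expression was profiled on 18 Affymetrix mouse arrays while HBG3 mouse embryonic stem (ES) cells were differentiated into motor neurons. All stages came from this 1 line. They were undifferentiated ES cells (day 0, 3 arrays), embryoid bodies without retinoic acid (RA) (day 2, 4 arrays), embryoid bodies given RA for 8 h (day 2, 2 arrays), neural precursors (day 3, 3 arrays), progenitor motor neurons (day 4, 3 arrays) and postmitotic motor neurons (day 7, 3 arrays). RA and a hedgehog agonist were both supplied from day 2, although only RA is named for the 8 h arrays. No culture was carried to 8 h or beyond without RA, so time in culture and exposure cannot be told apart in any comparison with an RA-treated stage. The cultures were not sorted, so that fewer cells expressing a gene and less RNA per cell cannot be told apart in these values.

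Polycomb proteins keep developmental genes silent. PRC2 methylates a lysine of histone H3 through one of its alternative enzymes, Ezh2 in dividing cells or Ezh1, each of which needs the partners Eed and Suz12 for activity, while Jarid2 helps to bring the complex to its targets in ES cells. The Cbx proteins carry a chromodomain that reads the methylated histone and place PRC1 there, and each PRC1 complex of this kind holds a single Cbx, of which Cbx7 is the main one in ES cells.

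The sequences before the transcription start are shown for the PRC2 core genes Ezh2, Eed and Suz12, which fell at day 7, and for Cbx7, the subunit with the largest fall between day 7 and day 0. Each is the 250 bases upstream of the start in RefSeq's GRCm38.p6 annotation, 5′ to 3′ on the strand of the gene, with CpG dinucleotides in capitals. They lie at chr6:47595031-47595280 (minus strand), chr7:89980977-89981226 (minus strand), chr11:79992856-79993105 (plus strand) and chr15:79932647-79932896 (minus strand).
Ezh2: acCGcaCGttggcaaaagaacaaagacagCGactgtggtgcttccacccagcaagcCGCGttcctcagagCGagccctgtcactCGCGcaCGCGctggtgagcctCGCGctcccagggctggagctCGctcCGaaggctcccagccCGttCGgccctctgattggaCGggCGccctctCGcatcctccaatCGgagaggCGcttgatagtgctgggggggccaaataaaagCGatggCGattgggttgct
Eed: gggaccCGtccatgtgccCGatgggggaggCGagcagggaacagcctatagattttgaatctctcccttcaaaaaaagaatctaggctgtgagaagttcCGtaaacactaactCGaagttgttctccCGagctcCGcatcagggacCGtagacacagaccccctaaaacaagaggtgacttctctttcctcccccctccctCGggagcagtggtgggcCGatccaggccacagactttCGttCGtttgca
Suz12: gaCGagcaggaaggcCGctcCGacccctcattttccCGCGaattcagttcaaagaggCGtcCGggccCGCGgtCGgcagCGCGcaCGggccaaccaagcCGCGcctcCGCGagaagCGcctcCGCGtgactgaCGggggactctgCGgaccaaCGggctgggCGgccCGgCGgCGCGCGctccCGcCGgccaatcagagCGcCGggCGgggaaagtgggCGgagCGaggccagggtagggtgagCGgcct
Cbx7: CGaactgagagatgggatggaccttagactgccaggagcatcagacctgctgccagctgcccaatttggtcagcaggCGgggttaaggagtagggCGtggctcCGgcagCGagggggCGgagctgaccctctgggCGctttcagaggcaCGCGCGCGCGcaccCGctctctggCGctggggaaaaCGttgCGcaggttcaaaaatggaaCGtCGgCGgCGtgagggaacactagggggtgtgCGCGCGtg

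Entries were found for 8 of the 9 genes, with 9 promoters in all since Jarid2 has 2 starts, and Cbx2 had no entry. CpG dinucleotides numbered 23 in the Ezh2 promoter, 12 in Eed, 37 in Suz12 and 23 in Cbx7, against a median of 6.0 over all 32851 promoters of this length. The lowest count among the 9, the 12 of Eed, was reached by 33.5% of all promoters. The G and C content was 54.4% in Eed and 73.6% in Suz12, the extremes of the 9, against a median of 52.4% over all promoters. The E2F core TTCCCGC, searched on both strands, stood in Suz12 alone, 218 to 212 bases before the start, and in 3.82% of all promoters. The other E2F core, TTGGCGC, was in none of the 9 and in 1.97% of all promoters. The E-box CACGTG stood in Cbx8, 98 to 93 bases before the start, and in Cbx6, 26 to 21 bases before it, and in 6.02% of all promoters. These 3 occurrences lie in different promoters.

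All values below are log2 signals after GCRMA, a normalization of probe intensities, and the background level was set at a log2 signal of 4. The text gives a gene's brightest probe set unless another is named. A gene was called where limma, fitted to all 18 arrays, gave it a Benjamini-Hochberg adjusted p below 0.01 and it changed by 2-fold or more. Between 55.2% and 56.9% of all probe sets lay under the background level on each array. Markers followed the labels in part. Among 7 ES cell genes the summed signal was 6.94 to 7.40 (log2) at day 7, against 15.07 to 15.47 at day 0. At day 7 the motor neuron genes Mnx1 and Isl1 averaged 6.65 and 11.58, while Chat, the acetylcholine-synthesizing enzyme, was under background on all 3 arrays. The 7 motor neuron genes listed already summed to 10.58 to 11.30 (log2) at day 4, against 11.57 to 12.10 at day 7. Of these, 3 were called higher at day 7 against day 4 and none lower, where 8.81% of all genes were called higher. ES cells were expanded on feeder cells and moved to gelatin for experiments, and 7 fibroblast genes summed to 7.19 to 7.60 (log2) at day 2, against 9.12 to 11.84 at day 0. The part of such cells in the day 0 values was not tested.

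**Figure D1:**
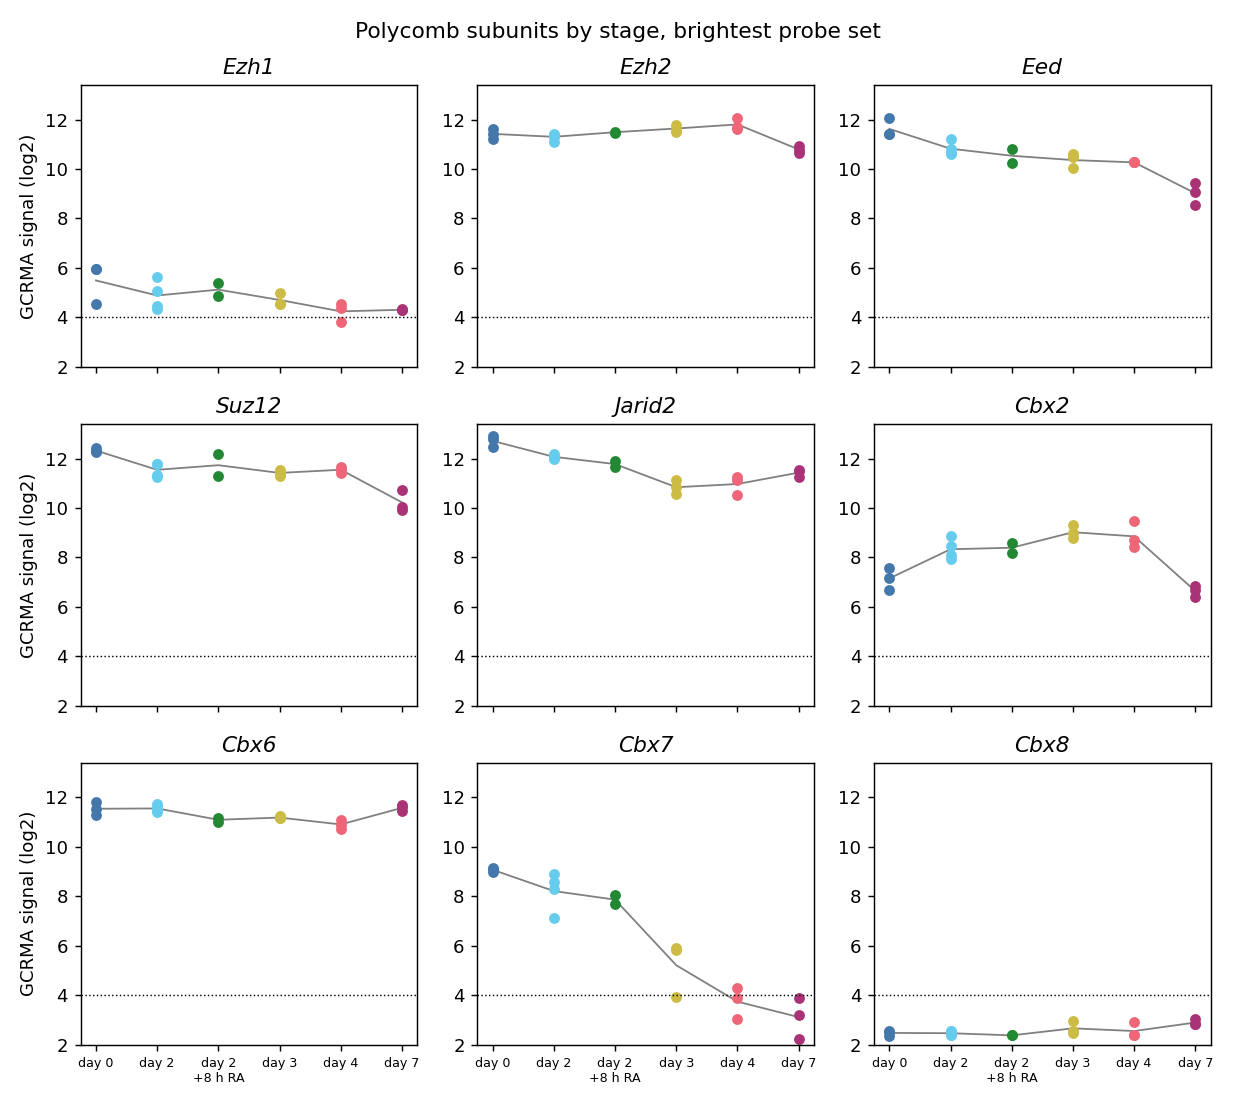
GCRMA log2 signal (vertical axes) of the 9 Polycomb subunits at the 6 stages (horizontal axes), 1 point per array, with lines through the stage means and a dotted line at the background level of 4. Cbx7 drops from day 3 on, the PRC2 core genes Ezh2, Eed and Suz12 and the PRC1 gene Cbx2 are lower at day 7 than at day 4, and Cbx8 stays under the dotted line on all 18 arrays.

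Among the enzymes of PRC2, Ezh2 was abundant at each stage and was lower at day 7. Its log2 signals were 11.62, 11.22 and 11.43 in ES cells, 11.11, 11.31, 11.40 and 11.39 at day 2, 11.51 and 11.47 after 8 h of RA, 11.50, 11.62 and 11.80 at day 3, 11.63, 11.72 and 12.06 at day 4, and 10.79, 10.95 and 10.64 at day 7. The 3 day 7 arrays lay below all 15 others. Ezh2 fell 2.02-fold at day 7 relative to day 4 (log2 fold change -1.01, SE 0.13, limma adjusted p = 9.65e-05). That is close to the 2-fold limit, and it was no longer reached without day 4 replicate 3 (-0.88), without day 7 replicate 5 (-0.94) or with quantile normalization (-0.96). Relative to day 0, the day 7 change was -0.63 (SE 0.13, limma adjusted p = 0.00228), under the fold limit. The 5 stages before day 7 formed a narrow band, with means between 11.30 and 11.80, in which every stage overlapped its neighbour in the order of levels. All 8 h RA, day 3 and day 4 arrays nevertheless lay above those of day 2. The change at day 3 against day 2 was +0.34 (SE 0.12, limma adjusted p = 0.141) and was not called.

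Ezh1, the alternative enzyme, gave dim signals and probe sets that disagreed. The brightest, 1418290_a_at, read 5.96, 5.96 and 4.56 in ES cells, 3.81, 4.56 and 4.37 at day 4, and 4.31, 4.29 and 4.33 at day 7. Between these ends, the day 2 arrays ran from 4.35 to 5.65, the 8 h arrays from 4.85 to 5.40 and the day 3 arrays from 4.56 to 5.0. ES replicate 3 stood with the later stages, whereas the other 2 ES arrays were above all later ones. The day 7 change was +0.06 (SE 0.40) against day 4 and -1.18 (SE 0.40, limma adjusted p = 0.0386) against day 0, and neither was called. Without ES replicate 3 the change against day 0 was -1.65 (limma adjusted p = 0.00294) and passed both limits. Another probe set, 1449023_a_at, read 3.16, 3.11 and 3.54 at day 7 against 6.16, 5.56 and 5.02 at day 0, and was at least 2.99-fold lower at day 7 (limma adjusted p = 6.32e-04), a bound because all 3 day 7 arrays were under background. The dimmer 1429629_at was under background on 17 of 18 arrays and read 4.42 on day 7 replicate 5 alone, and 1429630_at was under background on all 18.

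The difference of the Ezh1 and Ezh2 signals was taken on each array, and only its change between stages can be read, since the probe sets differ in sensitivity. At day 4 it had changed by -1.63 log2 units relative to day 0, with no overlap of arrays, and at day 7 by -0.56, with overlapping arrays. Only the brightest Ezh1 probe set was used, with signals near background at day 4. Its day 4 replicate 1 (3.81) was under background and was not raised to it. No probe set of Ezh1 was called higher in any of the 6 comparisons.

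Eed, which binds the methylated histone within PRC2, was highest in ES cells and lowest at day 7. ES cells read 11.41, 12.06 and 11.40, day 2 embryoid bodies 10.65, 10.62, 10.79 and 11.23, and the 8 h RA arrays 10.81 and 10.26. Signals were 10.47, 10.59 and 10.02 at day 3, 10.26, 10.27 and 10.27 at day 4, and 9.08, 9.44 and 8.54 at day 7. The ES arrays lay above all others and the day 7 arrays below all others. Each of the 4 stages between overlapped its neighbour among them in the order of levels, but all day 3 and day 4 arrays lay below those of day 2. Eed fell 2.38-fold at day 7 relative to day 4 (-1.25, SE 0.26, limma adjusted p = 0.00351) and 6.08-fold relative to day 0 (-2.60, SE 0.26, limma adjusted p = 3.94e-06). The day 2 change from day 0 was -0.80 (SE 0.24, limma adjusted p = 0.0851) and was not called, although no array overlapped. The fall against day 4 kept its size, -1.01 to -1.46, when any 1 array was left out, but its adjusted p rose to 0.0113 to 0.0162 without any 1 of the day 4 arrays or without day 7 replicate 3 or 5. With both probe sets averaged it was -0.63 and not called. The second Eed probe set was under background on all 18 arrays, so averaging was bound to shrink the change.

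Suz12, the zinc finger partner that PRC2 needs for its stability, followed a like course. Its brightest probe set read 12.25, 12.30 and 12.42 in ES cells, 11.79, 11.78, 11.34 and 11.26 at day 2, and 11.29 and 12.17 after 8 h of RA. Later signals were 11.29, 11.41 and 11.55 at day 3, 11.41, 11.56 and 11.67 at day 4, and 10.05, 9.90 and 10.73 at day 7. The ES arrays were highest and the day 7 arrays lowest, with no overlap at either end. Suz12 fell 2.50-fold at day 7 relative to day 4 (-1.32, SE 0.24, limma adjusted p = 0.00143) and 4.28-fold relative to day 0 (-2.10, SE 0.24, limma adjusted p = 1.49e-05). Of its 6 probe sets, 5 were above background. Against day 4, changes over these 5 ran from -2.38 to -1.18 and 4 were called. Against day 0 they ran from -3.76 to -1.90 and all 5 were called. Probe sets of 1 gene were read on the same arrays and are not replicates.

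**Figure D2:**
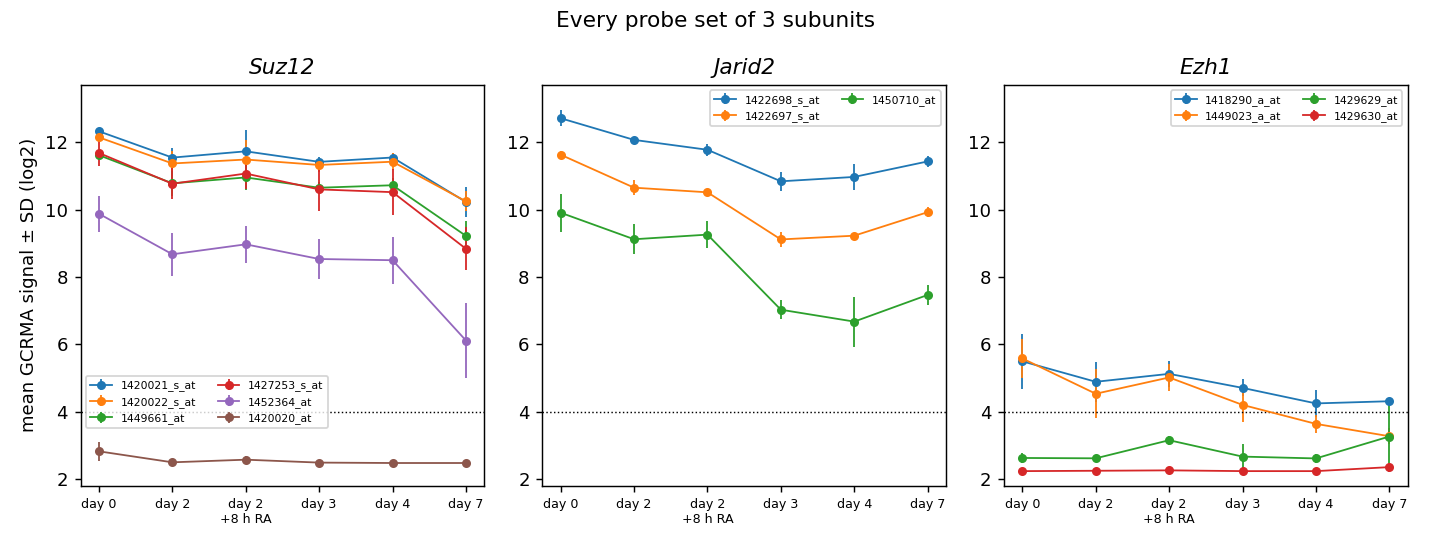
Mean GCRMA log2 signal ± SD (vertical axes) at each stage (horizontal axes) for every probe set of Suz12, Jarid2 and Ezh1, with a dotted line at the background level of 4. The 5 bright probe sets of Suz12 drop together at day 7 and the 3 of Jarid2 drop together at day 3, whereas the 2 brighter probe sets of Ezh1 decline and a dim one is raised at day 7 by 1 array.

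Jarid2, the accessory subunit, was called lower at day 3, before any core gene was called, and was not called lower at a later step. By day 2, Eed (-0.80), Suz12 (-0.78) and Jarid2 (-0.64) had each changed from day 0 without a call. For Jarid2 the probe set 1422697_s_at gave -0.98 there (limma adjusted p = 4.28e-04), with no overlap of arrays and just short of 2-fold. The third, 1450710_at, gave -0.79 (limma adjusted p = 0.331), so a fall of Jarid2 had begun before day 3 in 1 probe set at least. Jarid2 log2 signals were 12.90, 12.79 and 12.45 in ES cells, 12.20, 11.98, 12.05 and 12.04 at day 2, and 11.90 and 11.65 after 8 h of RA. They were 11.11, 10.86 and 10.55 at day 3, 11.25, 11.14 and 10.51 at day 4, and 11.53, 11.50 and 11.26 at day 7. In the order of levels, ES cells, day 2, 8 h RA and day 7 followed each other with no overlap of neighbours. The lowest day 7 array (11.26) and the highest day 4 array (11.25) were almost level, and day 4 and day 3 overlapped. Jarid2 fell 2.35-fold at day 3 relative to day 2 (-1.23, SE 0.18, limma adjusted p = 7.01e-04), and all 3 of its probe sets were called, with changes of -2.09 to -1.23. The call was lost in a fit of the 2 stages alone (limma adjusted p = 0.0105) and in the same fit with the replicate number as a block (-1.24, limma adjusted p = 0.0907). From day 4 the direction turned. The day 7 change against day 4 was +0.46 (SE 0.19, limma adjusted p = 0.132), and the other probe sets gave +0.70 (limma adjusted p = 0.002) and +0.79 (limma adjusted p = 0.217). None of these reached 2-fold. Relative to day 0, Jarid2 was 2.43-fold lower at day 7 (-1.28, SE 0.19, limma adjusted p = 1.55e-04), and again all 3 probe sets were called.

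In PRC1, Cbx7 showed the largest change of the 9 genes. Its signals were 9.14, 8.98 and 9.10 in ES cells, 8.28, 7.11, 8.58 and 8.89 at day 2, and 7.68 and 8.05 after 8 h of RA. At day 3 they were 5.83, 3.92 and 5.90, at day 4 3.04, 3.90 and 4.28, and at day 7 2.24, 3.22 and 3.90. All 3 day 7 arrays and 2 of the 3 day 4 arrays were under background. Cbx7 fell 8.00-fold at day 3 relative to day 2 (-3.0, SE 0.56, limma adjusted p = 0.00398), and the arrays of the stages did not overlap. Day 3 replicate 2 and day 2 replicate 2 were each the lowest of their stage by over 1 log2 unit. This call was lost when day 2 replicate 1, 3 or 4 or day 3 replicate 2 was left out, with changes of -2.35 to -2.98 and adjusted p of 0.012 to 0.0186. It was also lost in the fit of the 2 stages alone (limma adjusted p = 0.0794) and with the replicate block in that fit (-2.77, limma adjusted p = 0.0705). Relative to day 0, Cbx7 was at least 33.7-fold lower at day 7 (limma adjusted p = 4.07e-06), a bound because day 7 was set to the background level. The day 4 change from day 3 was -1.47 (SE 0.60, limma adjusted p = 0.52). All these values rest on the probe set 1433557_at. Of the others, 1449713_at was under background on 16 of 18 arrays and 1420039_s_at on all 18. With the probe sets averaged, the change was -1.45 at day 3 against day 2 and -2.33 at day 7 against day 0, both still called.

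Cbx2, another chromodomain subunit, had the opposite early course and a late fall. It read 7.19, 6.68 and 7.59 in ES cells, 7.95, 8.08, 8.44 and 8.85 at day 2, and 8.19 and 8.59 after 8 h of RA. Signals were highest at day 3, with 8.78, 8.98 and 9.30, and at day 4, with 8.40, 8.69 and 9.46, and they were 6.67, 6.85 and 6.39 at day 7. The day 7 arrays overlapped those of ES cells and lay below the rest. Cbx2 fell 4.64-fold at day 7 relative to day 4 (-2.21, SE 0.31, limma adjusted p = 1.84e-04). The difference at day 2 from day 0 was +1.18 (SE 0.29, limma adjusted p = 0.0342), 2.27-fold with no overlap of arrays, but the adjusted p was above 0.01. The second Cbx2 probe set was under background throughout. The Cbx7 signal minus the Cbx2 signal was taken on each array, with values under background raised to it, as those of Cbx7 were on 1 array at day 3, 2 at day 4 and all 3 at day 7. Relative to day 0 the difference had changed by -2.04 log2 units at day 2 and by at least -5.70 at day 3, -6.68 at day 4 and -4.56 at day 7, and no array of these stages overlapped those of day 0.

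Cbx6 varied least among the 8 genes above background. Its brightest probe set ranged from 10.73 to 11.80 over the 18 arrays. Day 7 arrays read 11.60, 11.70 and 11.44, against 10.88, 11.11 and 10.73 at day 4, a change of +0.67 (SE 0.13, limma adjusted p = 0.00234) that was 1.59-fold and so not called. The second, dimmer probe set gave +1.25 (SE 0.41, limma adjusted p = 0.0508) in the same comparison. Cbx8 was under background on all 18 arrays in both of its probe sets, the highest reading being 3.20, and no fold change is given for it.

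**Figure D3:**
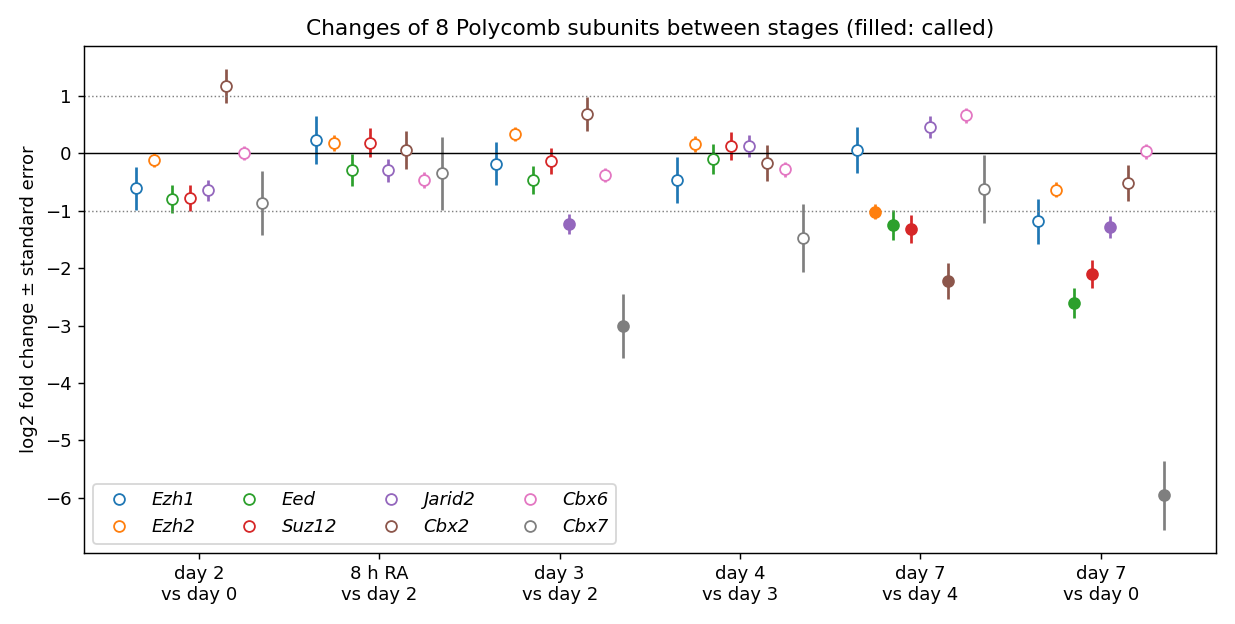
Log2 fold change with its standard error (vertical axis) of the 8 Polycomb subunits above background in each of the 6 comparisons (horizontal axis, later or treated stage against the earlier one). Filled points were called and dotted lines mark 2-fold. The calls are Jarid2 and Cbx7 at day 3, Ezh2, Eed, Suz12 and Cbx2 at day 7 against day 4, and Eed, Suz12, Jarid2 and Cbx7 at day 7 against day 0, all of them lower. The Cbx7 points for day 7 are fitted values from signals under background and not measured sizes.

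Across the 9 genes, each comparison was set against all genes tested in the same way. In embryoid bodies given RA for 8 h against day 2, 0 of 9 were called by limma, where 0.368% of all genes were (0.308% higher and 0.0605% lower). In that comparison 1 of 9, Cbx6 (-0.46, SE 0.14), had an unadjusted p under 0.05, as did 5.77% of all genes, and arrays did not overlap for 3 of 9 and for 11.3% of all genes. For day 2 against day 0, 0 of 9 were called, against 3.83% of all genes (1.67% higher and 2.15% lower). There 4 of 9, Eed, Suz12, Jarid2 and Cbx2, had an unadjusted p under 0.05, against 21.2% of all genes, and arrays did not overlap for 5 of 9, against 15.3%. For day 4 against day 3, 0 of 9 were called, against 1.22% of all genes (0.506% higher and 0.715% lower). Cbx7 alone had an unadjusted p under 0.05, against 10.1% of all genes, and arrays did not overlap for 1 of 9, Cbx6, against 13.6%. A separate fit of the 2 stages alone also called 0 of 9 in each of these 3 comparisons, where it called 0.0385%, 0.297% and 0.0824% of all genes.

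For day 3 against day 2, 2 of 9 were lower and none was higher, where 6.62% of all genes were called, 3.22% lower and 3.4% higher. Arrays did not overlap for 5 of 9, against 24.3% of all genes. For day 7 against day 4, 4 of 9 were lower and none was higher, where 15.4% of all genes were called, 6.58% lower and 8.81% higher. With values raised to background, the median change of the 9 genes there was -0.0946, that of Cbx7, against 0 over all genes. Arrays did not overlap for 6 of 9, against 36% of all genes. Between day 7 and day 0, 4 of 9 were lower, Cbx7, Eed, Suz12 and Jarid2, and none was higher, where 28.2% of all genes were called, 13.9% lower and 14.3% higher. Arrays did not overlap there for 7 of 9, against 47.1% of all genes, and with values raised to background, which leaves out Cbx8, for 6 of 9, against 40.8%. The 2 day 7 comparisons share the day 7 arrays, and those of day 3 and of 8 h RA share the day 2 arrays. In a fit restricted to the arrays of the 2 stages, 0 of 9 were called for day 3 against day 2 and 0 of 9 for day 7 against day 4, while every called change kept its direction. That fit called 2.98% of all genes for day 3 against day 2 and 5.51% for day 7 against day 4.

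Other Polycomb genes, from 3 lists written for this comparison, moved in both directions. Their counts are to be read against the shares of all genes given above for the same comparisons. Of 9 other PRC2 genes, 2 were higher and none was lower at day 3 against day 2, Lcor (+1.84, SE 0.28, limma adjusted p = 9.87e-04) and Lcorl (+1.26), whose products join some PRC2 complexes. By day 7 against day 4, none was higher and 2 were lower. They were Epop, another accessory protein of PRC2 (at least 5.83-fold lower, limma adjusted p = 1.72e-04), and the histone-binding Rbbp7 (-1.05, SE 0.25). Over the whole course, day 7 against day 0, 2 were higher, Lcor and Lcorl, and 4 were lower, Epop (at least 57.9-fold lower, limma adjusted p = 6.12e-08), Mtf2, Aebp2 and Rbbp7.

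Among 21 other PRC1 genes measured of 23 listed, 1 was higher at day 2 against day 0. It was Phc2, a polyhomeotic subunit (+1.55, SE 0.24, limma adjusted p = 0.0016). At day 3 against day 2, 4 were higher and 1 was lower. Bmi1, a ring finger partner that defines one PRC1 form, was 6.34-fold higher (+2.66, SE 0.24, limma adjusted p = 1.41e-05). It read 9.97, 9.90 and 10.12 at day 3, against 6.71, 7.43, 7.73 and 7.46 at day 2. Ring1, one of the alternative ubiquitin ligases of PRC1, was 4.55-fold higher, and Scml2 and Phc3 rose too. Phc1 was 5.34-fold lower (-2.42, SE 0.18, limma adjusted p = 2.63e-06). Cbx7 and Phc1 were thus lower in the comparison in which Bmi1, Ring1, Scml2 and Phc3 were higher. Later, at day 7 against day 4, Pcgf6 was the only one of the 21 called, and it was lower (-1.53, SE 0.25, limma adjusted p = 6.30e-04). Between day 7 and day 0, 5 were higher and 5 were lower, among them Phc2 (9.39-fold higher) and Pcgf5 (12.0-fold lower).

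The last list held 6 genes, for the histone demethylases Kdm6a and Kdm6b, which remove the mark that PRC2 writes, and for the Bap1 complex, which removes the ubiquitin that PRC1 adds. None of the 6 was called before day 7. Then, at day 7 against day 4, 2 were lower and none was higher, Asxl2 of the Bap1 complex (-1.73, SE 0.32, limma adjusted p = 0.00167) and Kdm6a (-1.73, SE 0.33, limma adjusted p = 0.00192). Relative to day 0, the same 2 were lower at day 7, and Asxl3 was 13.8-fold higher (limma adjusted p = 3.17e-06).

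**Figure D4:**
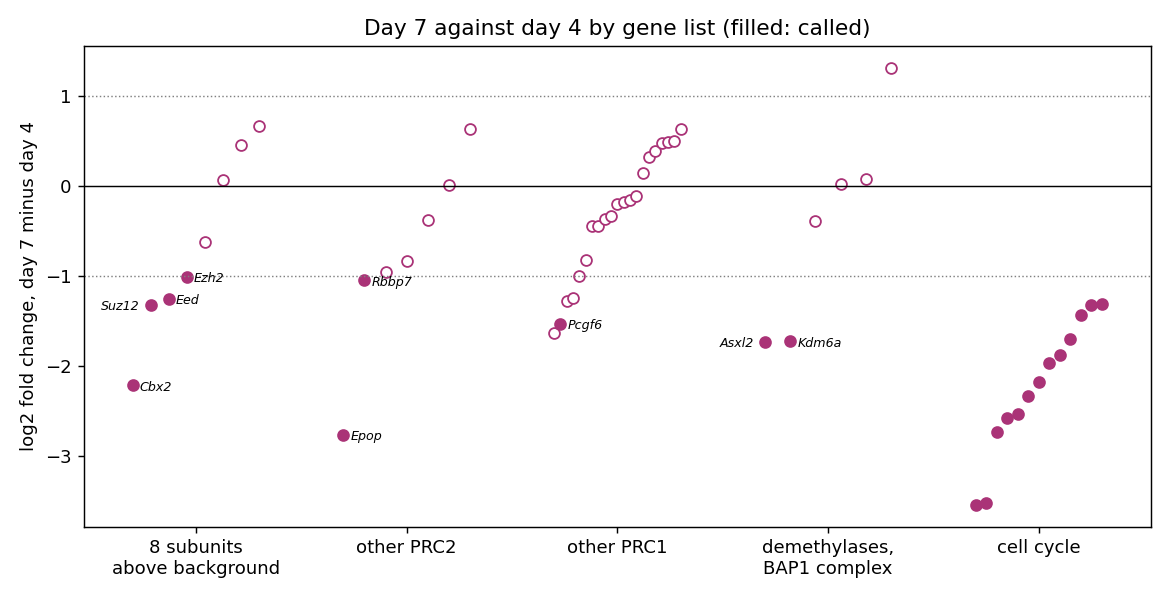
Log2 fold change at day 7 relative to day 4 (vertical axis) for each gene above background in 5 gene lists (horizontal axis), ordered by size within a list. Filled points were called, with names except in the cell cycle list, and dotted lines mark 2-fold. The points of Cbx7 (-0.62) and Epop are fitted from day 7 signals under background and are not measured sizes. In the first list 4 subunits were called lower and none higher, and in the last all 13 cell cycle genes were lower, where 6.58% of all genes were called lower.

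Cell cycle genes moved with the late fall. All 13 of the 14 listed that were measured were lower at day 7 against day 4, where 6.58% of all genes were lower. Their median change was -2.18, with a range of -3.54 to -1.31. Their summed signal (log2) was 13.78 to 13.93 at day 7, against 15.43 to 15.73 at day 4, and none of the 13 was called in the earlier comparisons between adjacent stages. The change of Cbx2 (-2.21) was near that median, that of Suz12 (-1.32) was near the smallest in the list, and those of Eed and Ezh2 were smaller still. None of the 13 was under background at day 7. Of 6 glial genes measured, 3 were higher at day 7 against day 4, Sox10, Aldh1l1 and Aqp4, where 8.81% of all genes were higher. The 6 had a summed signal of 10.21 to 11.67 (log2) at day 7 against 7.94 to 8.46 at day 4, while Gfap was under background on every array. The part of dividing cells and of glia in the fall of the 4 subunits was not tested.

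The falls of Jarid2 and Cbx7 at day 3 came with a change in ES cell genes. Of 7 such genes, 5 were lower and none was higher at day 3 against day 2, where 3.22% of all genes were lower. The summed signal (log2) of the 7 was 10.32 to 11.07 at day 3 against 14.19 to 14.38 at day 2. Pou5f1 averaged 5.47 at day 3 against 12.51 at day 2, and Nanog averaged 7.40 against 12.46 at these stages. All 4 primed epiblast genes were lower in this comparison as well. The part of remaining undifferentiated cells in the values of the 2 subunits was not tested.

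Genes with the most similar course were found by Pearson's r over the 6 stage means, among genes with a highest stage mean of at least 6 and a range of at least 1 (7527 genes for Ezh1 and 7526 for each other subunit). With 6 points that share arrays across genes, these values describe the course and carry no p. The best match of Cbx7 was Phlda2 (r = 0.999), that of Eed was Kcnk5 (r = 0.998), that of Cbx2 was Wdr90 (r = 0.997) and that of Ezh2 was Asf1b, a histone chaperone (r = 0.993). Suz12 was matched best by Slc19a2 (r = 0.992), Jarid2 by Itpk1 (r = 0.993) and Ezh1 by Golga5 (r = 0.998). No subunit was among the 3 best matches of another. With so many candidates that does not show that their courses differed, and Ezh1, Cbx6 and Cbx8 were not candidates under these limits. Cbx6 and Cbx8 varied by less than 1 log2 unit over the stage means and were not matched.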

How the data were processed

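The authors deposited one log2 signal for each probe set and array, made by GCRMA over all 18 arrays, and these were used unchanged; versions of GCRMA and limma are not given in the sources used here. RNA had been amplified with a commercial kit before hybridization, and the study's methods call the arrays biological replicates. Of 45101 probe sets, 64 controls were left out, 45037 were tested and 34945 carry a single gene symbol. Stages and replicate numbers come from the sample titles.

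Under R 4.3.3, lmFit and eBayes of limma 3.58.1 fitted 6 group means to 18 arrays (12 residual and 0.515 prior degrees of freedom), with Benjamini-Hochberg adjustment over 45037 probe sets. The fit was tested on simulated data. A gene's value is its probe set with the highest mean, and calls needed an adjusted p under 0.01 and a 2-fold change, the thresholds of the study. SEs use a spread pooled over stages and can be too small near background. A fold against a stage with every array under log2 4 is a bound with that stage set to 4. Precision is limited by how many arrays a stage has. Figures were drawn in Python 3.11.15 (matplotlib 3.10.9).

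Named genes are all 9 subunits, up to 4 called genes with the largest change per comparison and other Polycomb list, and the 3 genes with the highest Pearson r for each subunit whose stage means span at least 1. In the text, Lcor, Lcorl, Rbbp7, Mtf2, Aebp2 and Phc3, like the named markers, were chosen after their values were seen, to complete small counts. Members and lists were chosen with earlier results of these data known. Some listed genes and protein sequences were not analysed here.

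As a check of pairing, deviations from the stage means were correlated between arrays of the same replicate number. These were 0.48, 0.35 and 0.48 between day 3 and day 2 and 0.64, 0.42 and 0.75 between day 4 and day 3, where arrays were taken as paired. They were -0.22 and -0.45 between 8 h RA and day 2, and 0.21, -0.20 and -0.13 between day 2 and day 0, which were not. The alternatives tried were a fit of the 2 stages alone, a replicate block, moderation with trend and robust options, omission of dim probe sets (fewer than 2 arrays at log2 4), a floor at log2 4, quantile normalization, median centring, any or averaged probe sets of a gene, omission of probe sets that can match several transcripts (suffixes s, x and a), a limit of 0.05 on the adjusted p, and each array omitted in turn.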

Additional observations from a re-analysis of the deposited data

How the results depend on the processing

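For the 9 subunits, counts of calls changed as follows. In the fit of the 2 stages alone, 0 were called at day 3 against day 2 (Cbx7 adjusted p = 0.0794, Jarid2 0.0105) and 0 at day 7 against day 4 (Cbx2 0.023, Ezh2 0.0239, Suz12 0.0446 and Eed 0.0481, by limma). At day 7 against day 4, 3 were called with quantile normalization (Ezh2 lost, -0.96) and 3 with probe sets averaged (Eed lost, -0.63). The second Eed probe set was under background on every array, so averaging was bound to shrink the change of Eed, and that loss is no test of it. At an adjusted p under 0.05, 1 was called at day 2 against day 0. With 1 array left out, 1 to 2 were called at day 3 against day 2 and 2 to 4 at day 7 against day 4, the fewest without day 4 replicate 3 or day 7 replicate 5. The count at day 7 against day 0 held under every alternative within 1.5 times.

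Fitting the replicate number as a block to the paired arrays of the 2 stages alone left 0 calls at day 3 against day 2 (Jarid2 adjusted p = 0.0907, Cbx7 0.0705), whereas a replicate block over days 2 to 4 in the fit of all arrays, chosen after seeing the data, kept both. Between 8 h RA and day 2 and between day 2 and day 0, where the numbers do not pair arrays, the block moved no count of calls. No paired analysis was possible at day 7 because its arrays share only 1 number with day 4 or day 0.

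No called change turned its direction. Some uncalled changes did. With quantile normalization Cbx2 after 8 h RA gave -0.0416 and Ezh1 at day 7 against day 4 gave -0.10, and with median centring Ezh1 gave -0.0295 there and Cbx6 at day 7 against day 0 gave -0.0328. With probe sets averaged, Jarid2 at day 4 against day 3 gave -0.0372. With suffixed probe sets left out it gave -0.35, and Jarid2 after 8 h RA gave 0.14. Ezh1 was then read from 1429629_at, under background on 17 of 18 arrays. That probe set gave 0.0506 at day 3 against day 2, with both stages under background. At day 7 against day 0 it gave 0.64, raised by 1 array, and neither value is a measured size. In the replicate block fits, Ezh1 at day 3 against day 2 gave 0.0736 and Cbx6 at day 2 against day 0 gave -0.0412. With 1 array left out, the ranges that crossed 0 were, after 8 h RA, -0.0408 to 0.51 for Ezh1, -0.25 to 0.63 for Suz12 and -0.14 to 0.26 for Cbx2. They were -0.12 to 0.14 for Cbx6 at day 2 against day 0, -0.36 to 0.0736 for Ezh1 at day 3 against day 2, and -0.26 to 0.0217 for Eed, -0.0162 to 0.36 for Jarid2 and -0.47 to 0.0566 for Cbx2 at day 4 against day 3. At day 7 they were -0.16 to 0.22 for Ezh1 against day 4 and -0.10 to 0.17 for Cbx6 against day 0. Signals near background limit what can be said of Ezh1, Cbx7 after day 3 and Cbx8, and 2 to 4 arrays a stage limit the rest. The cause of these differences was not tested.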
